A study of Homo sapiens with 11 samples.

Results

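The comparison described is that of RT4 cells after nickel was withdrawn (Ni-W) with RT4 cells still exposed to nickel (Ni-E), by RNA-Seq. RT4 is an established cell line from a human bladder tumour that had not invaded, and it keeps many features of the urothelium that lines the bladder. Ni-E cells were grown in medium with 100 µM NiCl2 for 6 weeks, and Ni-W cells had the same 100 µM exposure for 6 weeks followed by 2 weeks in medium without nickel. The comparison rests on 4 of the 11 samples of the series, 2 Ni-E and 2 Ni-W libraries, picked by their labels. The comparison and the gene lists used below were chosen with earlier results of these data known. The 2 libraries of untreated RT4 cells (UT), which never received nickel, entered the same model and are shown as levels beside the other groups. No engineered allele is named for any group. By their labels the 3 groups differ in nickel history, and Ni-W cells also spent more weeks in culture than Ni-E cells. Time in culture and withdrawal of nickel can therefore not be told apart. The paper describes 2 biological replicates per condition. The p-values measure the spread left over all 6 libraries once group and replicate number are fitted. They do not measure the full spread between replicates.

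Nickel ions are taken up by epithelial cells and interfere with enzymes that use iron. Among these are the prolyl hydroxylases that mark the hypoxia-inducible factors (HIF) for destruction, so that cells in nickel show features of oxygen shortage, and the JmjC histone demethylases. Interferon-stimulated genes are the antiviral program that cells switch on when interferon receptors signal, and uroplakins are the membrane proteins that coat the mature urothelial surface.

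Estimated counts summed to between 17075833 and 27736454 over the 4 libraries. The replicate 1 libraries of all 3 groups were the shallower ones, at no more than 18280556, and the replicate 2 libraries held at least 25721265. Same-numbered libraries deviated together from their group means, and the typical gene differed more between replicates than between Ni-E and Ni-W cells of the same number. The median absolute log2 difference was 0.25 between the 2 Ni-E libraries, 0.45 between the 2 Ni-W libraries, and 0.22 and 0.21 between Ni-W and Ni-E within pairs 1 and 2. Ni-W and Ni-E cells were compared within replicate pairs, which was part of the comparison's definition and not a choice drawn from these values. The labels name the cells as RT4 only. Of the urothelial markers, KRT7 (5334 to 6549 TPM over the 4 libraries), GATA3 (178 to 228 TPM) and PPARG (215 to 242 TPM) were abundant, and so was the general epithelial keratin KRT19 (4399 to 5418 TPM). KRT20, another urothelial marker, was low (values below). TPM is a level per transcript length, scaled to the same total in every library. Markers of other cell types were low: the summed TPM over 8 leukocyte markers was 15.8 to 19.5 in Ni-E and 21.6 to 23.4 in Ni-W cells, with PTPRC (CD45), the defining one, at most at 0.020 TPM, and the endothelial, fibroblast and bronchial lists summed to no more than 2.26, 5.47 and 1.07 TPM. Of the leukocyte list, ITGAM was called (log2 fold change 0.66 ± 0.14), with 6.00 and 4.94 TPM in Ni-E cells and 9.77 and 7.92 in Ni-W cells.

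Of 14502 genes tested, 672 (4.63%) differed between Ni-W and Ni-E cells at a Benjamini-Hochberg adjusted p-value below 0.05 with at least a 1.5-fold change, which is what is meant by called here. Expression was higher in Ni-W cells for 407 genes (2.81%) and lower for 265 genes (1.83%). These calls depend on pairing the replicates. Without the replicate block the same edgeR test called 0 genes, with 787 genes at an unadjusted p below 0.05, and DESeq2 called 528 genes with the block and 139 without it. With the block the test has 2 residual degrees of freedom. The median change over all genes tested was close to 0 on the log2 scale (-0.0024). Changes of at least 4-fold were seen for 48 genes that were higher and 26 that were lower, and of at least 8-fold for 15 and 9. The 4 libraries did not overlap between groups in CPM (counts scaled to library size) for 624 of the called genes, where 25.4% of all genes tested showed no overlap. Overlap is judged on CPM throughout. A gene can separate there and still overlap in the TPM printed, as PFKFB3, SLC2A1, NDRG1 and SLC40A1 do below. The change was at least 1.5-fold in the same direction within both pairs for 491 called genes, and for 626 of all 14502 genes tested. Over all genes tested, 52.25% had the same sign in both pairs, and the within-pair changes had a Spearman correlation of 0.20.

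**Figure D1:**
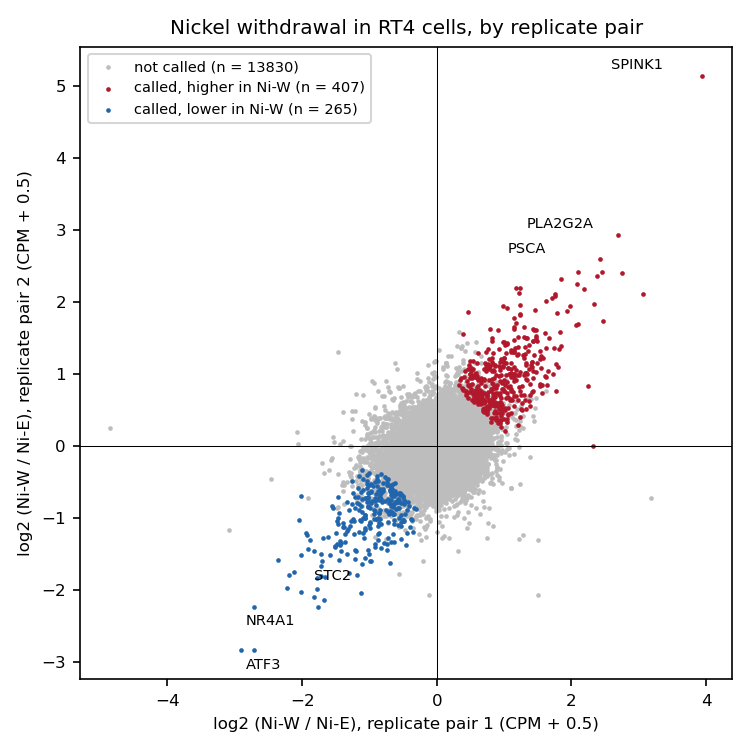
Each point is 1 of the 14502 genes tested, with the log2 ratio of Ni-W to Ni-E CPM (counts scaled to library size, plus 0.5) in replicate pair 1 on the x axis and in pair 2 on the y axis. Called genes are red (407 higher) and blue (265 lower) with SPINK1 at 3.95 and 5.15.

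Among called genes with a mean of at least 5 CPM over the 4 libraries and no overlap between the groups, to which the largest rises and falls below refer, the largest rise was that of SPINK1, a secreted trypsin inhibitor that urothelial tumours express. Its level was 1.67 and 0.56 TPM in the Ni-E libraries and 62.8 and 81.9 TPM in the Ni-W libraries, and UT cells held 78.8 and 101 TPM. Only 7 and 4 counts stood behind the Ni-E values, so the log2 fold change of 6.20 ± 0.33 (SE) has a low denominator (edgeR quasi-likelihood test with Benjamini-Hochberg adjustment, as for all adjusted p-values of single genes below, adjusted p = 1.33e-05). PLA2G2A, a secreted phospholipase A2, had 7.98 and 9.97 TPM in Ni-E cells against 65.0 and 79.3 in Ni-W cells, a log2 fold change of 2.99 ± 0.15. PIGR, the receptor that carries polymeric antibodies across epithelia, went from 0.89 and 0.67 TPM to 10.1 and 3.39, and FAM78B from 2.03 and 1.89 TPM to 12.9 and 8.16.

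Other genes with large rises differed in how far they went relative to UT cells. CCL22, a chemokine, had 2.33 and 1.92 TPM in Ni-E cells and 15.1 and 10.6 in Ni-W cells, which is above the 4.19 and 2.81 TPM of UT cells (log2 fold change 2.53 ± 0.17). CCR1, a chemokine receptor, rose from 2.63 and 2.54 TPM to 12.8 and 10.2. CTSE, the aspartic protease cathepsin E, was likewise higher in Ni-W cells (45.4 and 36.4 TPM) than in both Ni-E (7.30 and 6.84 TPM) and UT cells (21.6 and 19.0 TPM). CYP24A1, which inactivates vitamin D, stood at 2.34 and 1.04 TPM in Ni-E and 13.6 and 4.67 TPM in Ni-W cells. CKB, the brain-type creatine kinase, went from 12.4 and 13.9 TPM to 47.1 and 56.8. PSCA, a urothelial marker described below, was also among the 15 largest rises under these limits, with a log2 fold change of 2.61. The remaining genes of the 15, TMEM37, PALM3, RAP1GAP2, ANXA3 and EMX2OS, had log2 fold changes of 1.60 to 1.94. ANXA3 (an annexin) and TMEM37 were above their UT levels in Ni-W cells.

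In absolute terms the largest gains were in transcripts that were already abundant. CST1, a secreted cystatin, went from 2314 and 2442 TPM to 3642 and 4946 (log2 fold change 0.80 ± 0.13), and reads of this gene can be shared with its close relatives of the cystatin cluster. CYP4B1, a cytochrome P450 of the bladder epithelium, rose from 153 and 162 TPM to 460 and 474 TPM, while UT cells held 771 and 854 TPM. DHRS2, a short-chain dehydrogenase, IGFBP5, which binds insulin-like growth factors, and ISG15 followed. IGFBP5 had 133 and 105 TPM in Ni-E cells, 377 and 250 TPM in Ni-W cells and 133 and 99.6 TPM in UT cells, so its level in Ni-W cells exceeded that of both other groups.

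Under the same limits the largest fall was that of ATF3, a stress-induced transcription factor. Its level was 34.3 and 40.4 TPM in Ni-E cells and 5.41 and 5.05 TPM in Ni-W cells, next to 5.20 and 7.46 TPM in UT cells (log2 fold change -2.90 ± 0.17, adjusted p = 1.95e-05). NR4A1, an orphan nuclear receptor of the immediate early class, fell from 30.8 and 27.7 TPM to 4.76 and 5.34, below the 13.0 and 15.4 TPM of UT cells. MMP10, a matrix metalloproteinase, fell from 36.1 and 31.6 TPM to 8.11 and 7.29. HES1 and NRARP, both targets of Notch signalling, fell too. HES1 was an abundant transcript, with 674 and 765 TPM in Ni-E cells and 183 and 256 in Ni-W cells, and its level in UT cells (429 and 526 TPM) lay between them. The fall of STC2, the secreted glycoprotein stanniocalcin 2, was from 25.4 and 24.3 TPM to 8.54 and 7.57, and the Ni-W level remained above the UT level of 1.04 and 1.05 TPM. HIST2H2BE, a histone H2B gene, had 34.9 and 35.2 TPM in Ni-E cells and 10.6 and 12.02 TPM in Ni-W cells, and UT cells, at 33.4 and 32.2 TPM, were close to Ni-E cells. CDH13, EPHA4, PALMD, FSTL4 and UGT1A9 completed the 15 falls under these limits with EGR1, DUSP1 and IER3, and had log2 fold changes of -1.97 to -1.55. UGT1A9 shares exons with the other UGT1A genes, so its own part in these counts is uncertain.

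**Figure D2:**
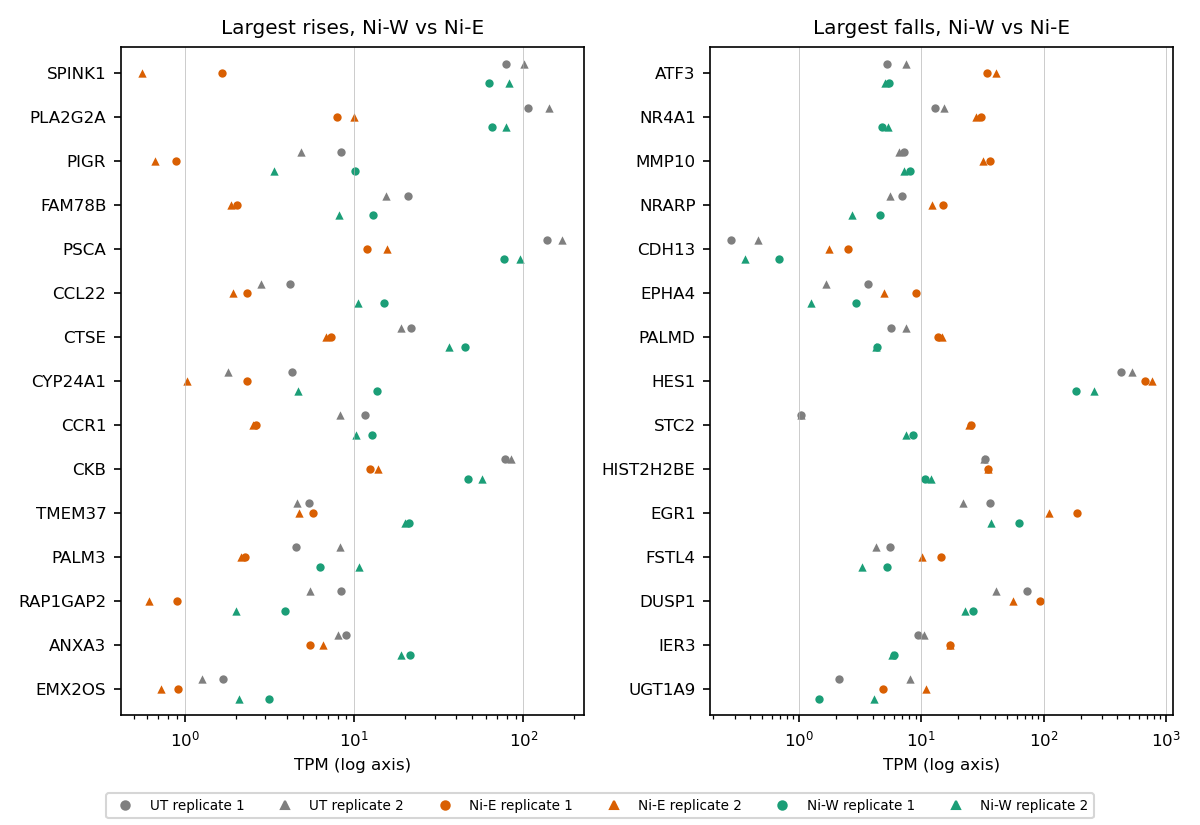
TPM (log axis) of the 15 largest rises (left) and the 15 largest falls (right) among called genes whose mean reached 5 CPM and whose groups do not overlap, 1 point per library, grey for UT, orange for Ni-E and green for Ni-W, circles for replicate 1 and triangles for replicate 2. Separation of Ni-E and Ni-W in CPM was a condition of the choice, and the place of grey was not. For SPINK1 (62.8 and 81.9 TPM in Ni-W) the green points lie near the grey ones, and for STC2 (8.54 and 7.57 TPM) they do not.

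Interferon-stimulated genes formed the list with the most calls. Of 49 members tested, 41 were higher in Ni-W cells and 0 were lower, where 2.81% of all genes tested were higher. The median log2 fold change of the 49 was 0.87 against -0.0024 over all genes tested, and their range was 0.06 to 1.54, so that no member had a value below 0. Within pairs 1 and 2 the medians were 0.84 and 0.71. The count of 41 was 38 to 42 when any 1 library was left out, 38 with DESeq2 and the block, and 27 with limma on TPM values, but 0 without the block (9 with DESeq2).

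MX1, a dynamin-like antiviral GTPase, had the largest change of the list. It held 40.8 and 37.6 TPM in the Ni-E libraries and 123 and 112 TPM in the Ni-W libraries, a log2 fold change of 1.54 ± 0.11 (adjusted p = 4.98e-05). UT cells held 15.7 and 15.6 TPM, so its level went up from UT to Ni-E and again to Ni-W cells. MX2 followed with 20.3 and 17.6 TPM in Ni-E cells, 61.2 and 46.7 TPM in Ni-W cells and 11.3 and 10.98 TPM in UT cells. XAF1, a pro-apoptotic protein induced by interferon, had 18.9 and 27.3 TPM in Ni-E and 54.5 and 62.9 TPM in Ni-W cells. GBP1, a guanylate-binding protein, differed in one respect, as its Ni-E level of 11.1 and 7.68 TPM was close to the UT level of 12.1 and 9.10, and it then reached 32.7 and 19.8 TPM in Ni-W cells.

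Other members also stood lowest in UT and highest in Ni-W cells. IFIT1, which binds viral RNA caps, had 0.71 and 0.94 TPM in UT cells, 11.5 in each Ni-E library, and 29.6 and 26.5 TPM in Ni-W cells (log2 fold change 1.24 ± 0.13 for Ni-W against Ni-E). IFI44L went from 0.16 and 0.070 TPM in UT cells through 5.87 and 5.63 to 15.7 and 11.1. ISG15, the ubiquitin-like modifier, had the largest gain in TPM of the list, with 48.5 and 62.8 TPM in UT cells, 154 and 217 in Ni-E cells and 327 and 531 in Ni-W cells. The contrasts with UT cells share libraries with the contrast described and are given as levels only.

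Sensors and the transcription factors of the pathway were among the called members. DDX58 (RIG-I), a sensor of viral RNA, had 9.60 and 8.96 TPM in Ni-E cells and 23.1 and 14.9 in Ni-W cells. IFIH1 (MDA5), another such sensor, had 14.5 and 11.3 TPM and then 29.0 and 16.1. Among the factors, IRF9 held 89.8 and 101 TPM in Ni-E cells and 157 and 185 in Ni-W cells, and IRF7 and IRF1 were higher by 1.04 ± 0.21 and 0.62 ± 0.11 on the log2 scale. CMPK2 and DTX3L were called although their groups overlapped. STAT2 was not called, with a log2 fold change of 0.43 ± 0.10 that is below 1.5-fold. The interferons themselves, looked up after these values were seen, were too low to be tested. IFNB1 had 0 and 2 counts in the Ni-E libraries and again 0 and 2 in the Ni-W libraries, IFNL1 had 3 and 3 and then 4 and 6, and IFNL2 was listed at 0 in all. The receptor genes IFNAR1 and IFNAR2 had 13.7 to 25.6 TPM over the 4 libraries, and their log2 fold changes of 0.22 ± 0.13 and 0.09 ± 0.12 did not pass the test. IFITM1 and IFITM3 were called as well, but their near-identical copies may share reads.

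**Figure D3:**
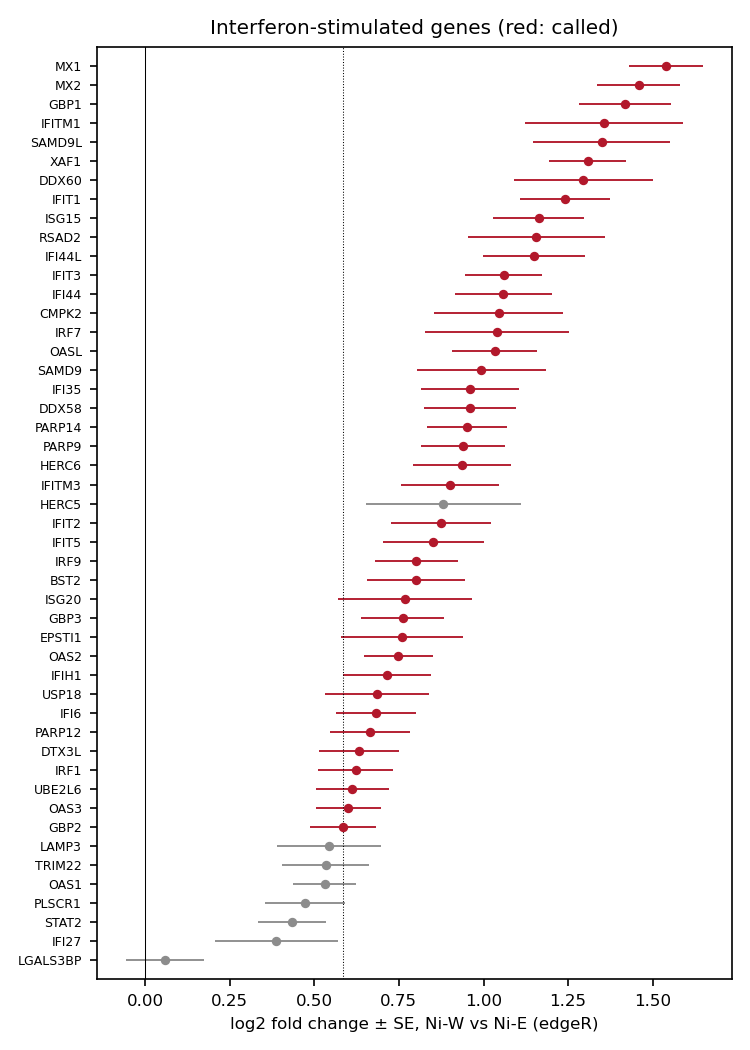
Log2 fold change of Ni-W over Ni-E cells with its standard error for 48 of the interferon-stimulated genes tested, sorted by size, with called genes in red and the others in grey. The dotted line marks 1.5-fold, and all values lie above 0, from 0.06 to 1.54 for MX1.

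The promoters of these genes were searched for the interferon-stimulated response element, the motif bound by the factors that interferon activates, searched for here as GAAA, any 2 bases and GAAA again on both strands. RefSeq promoter sequences (GRCh38.p14, 250 bases before to 50 after the start) were at hand for 33 of the 41 called members. The motif was present in 22 of the 33 (66.7%, exact 95% binomial interval 48.2% to 82.0%), against 2.78% of the promoters of all genes tested and 3.65% of all 27305 promoters. Among called genes it was present in 31 of the promoters of the 304 higher genes with a sequence (10.2%) and 4.28% of the 187 lower ones. The 31 include the 22 interferon-stimulated members just counted, so the 10.2% is not a separate result. The list was made of genes that interferon induces. A high share of this motif therefore follows from the list and is no result about nickel withdrawal. With only the 100 bases before the start, 13 of the 33 held it. These are matches of letters and not measured binding. The 100 bases around the match nearest to the start are shown for 4 called members with different arrangements, matches in capitals, written 5′ to 3′ on the strand of the gene.

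ISG15 (chr1:1013345-1013444, plus strand): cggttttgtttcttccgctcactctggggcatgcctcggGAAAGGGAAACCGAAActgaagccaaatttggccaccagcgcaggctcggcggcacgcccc
IFIT1 (chr10:89392475-89392574, plus strand): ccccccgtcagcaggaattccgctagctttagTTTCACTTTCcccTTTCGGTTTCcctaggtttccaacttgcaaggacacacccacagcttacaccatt
IFI6 (chr1:27672231-27672330, minus strand): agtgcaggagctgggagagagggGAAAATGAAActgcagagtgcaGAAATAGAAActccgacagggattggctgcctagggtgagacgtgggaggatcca
IFIH1 (chr2:162318685-162318784, minus strand): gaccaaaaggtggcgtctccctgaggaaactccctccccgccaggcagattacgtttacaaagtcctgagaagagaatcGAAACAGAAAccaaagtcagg
In ISG15 the 2 matches overlap, in IFIT1 both lie on the opposite strand, in IFI6 2 of 3 matches fall in the stretch shown, and in IFIH1 1 of 3 does.

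Lists of antigen presentation and inflammation held fewer calls, where 2.81% of all genes tested were higher and 1.83% lower. Of 14 tested genes of MHC class I presentation, PSMB10, an immunoproteasome subunit, was the 1 called, with overlapping groups (78.8 and 96.2 TPM in Ni-E cells, 111 and 173 TPM in Ni-W cells). There were 0 calls in this list without Ni-E replicate 2, and 2 without Ni-E replicate 1 or Ni-W replicate 1. B2M, the light chain of class I molecules, had a log2 fold change of 0.39 ± 0.10, below the 1.5-fold limit. HLA-E and HLA-G were listed at 0 TPM in all libraries, where a 0 can also be a failed estimate. Among 31 chemokines, cytokines and NF-κB targets, 6 were higher and 4 lower, with a median log2 fold change of 0.04. CCL20, which attracts CCR6-bearing lymphocytes, went from 22.7 and 31.5 TPM to 50.3 and 71.3, and CXCL6, CXCL1, CCL5, IL32 and BIRC3 were also higher. The 4 that fell were CXCL8 (136 and 116 TPM to 93.6 and 48.4), IL1B (134 and 126 TPM to 92.5 and 70.8), LIF (57.5 and 45.0 TPM to 33.8 and 26.9) and the acute phase gene SAA1. For CXCL8, IL1B and LIF the Ni-W libraries were still above the UT libraries, which held no more than 25.6, 45.4 and 17.1 TPM.

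Among urothelial differentiation genes, 7 of 17 tested were higher after withdrawal and 0 lower (2.81% and 1.83% of all genes tested), with a median log2 fold change of 0.43 (0.33 and 0.30 within the pairs), and the count was 6 to 8 when any 1 library was left out. PSCA, a surface antigen of the bladder, had 11.99 and 15.7 TPM in Ni-E, 76.8 and 95.2 in Ni-W and 138 and 170 in UT cells (log2 fold change 2.61 ± 0.14). All 4 uroplakins called belonged to the apical plaque. UPK2 had 96.2 and 128 TPM in Ni-E and 222 and 328 in Ni-W cells, UPK1A 16.1 and 18.5 and then 39.6 and 44.4, and UPK3A 49.8 and 59.2 and then 102 and 127. UPK3A thereby exceeded its UT level of 71.4 and 95.4 TPM, whereas UPK1A stayed below the 70.6 and 92.5 TPM of UT cells. UPK1B, with 0.80 ± 0.10, and the pioneer factor FOXA1, with 0.65 ± 0.10 on the log2 scale, were the others. KRT20, the keratin of the superficial umbrella cell, rose from 0.25 and 0.11 TPM to 1.59 and 1.37 and so stayed far below the 11.1 and 11.3 TPM of UT cells. GATA3 and PPARG, the transcription factors of the lineage, were near 0 on the log2 scale, at 0.01 ± 0.09 and 0.11 ± 0.10.

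Related epithelial lists held calls in both directions, with the same shares over all genes tested (2.81% higher, 1.83% lower). Of 29 keratin and junction genes, KRT23, KRT20 and DSC2 were higher and the basal keratin KRT15 was lower (18.9 and 22.2 TPM to 10.0 and 12.6). KRT23 went from 0.37 and 0.26 TPM to 3.01 and 3.20, while DSC2, a desmosomal cadherin, did not exceed 0.19 TPM in these 4 libraries. All 3 rises come from genes with few counts in Ni-E cells and were not tested when at least 10 counts were asked of every library. The higher genes numbered 2 to 5 when any 1 library was left out, with the 5 without Ni-W replicate 1. Among 21 secretory and squamous differentiation genes, 6 were higher, among them the cornified envelope genes IVL (50.9 and 48.5 TPM to 82.8 and 78.5) and SPRR3, the trefoil peptide TFF2 and the mucins MUC1 and MUC20, with 3 higher when Ni-E replicate 2 was left out. SLPI, a secreted protease inhibitor, fell from 107 and 125 TPM to 47.9 and 67.8 TPM and remained above its UT level of 12.3 and 12.1. Of 12 genes of epithelial-mesenchymal transition that could be tested, 0 were called (VIM was at most 0.31 TPM and too low to test), 1 had an unadjusted p below 0.05, DESeq2 with the block called 0, and EPCAM was at -0.11 ± 0.09.

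Targets of HIF included genes that were lower and none that were higher. In the list of glycolysis and glucose transport, 7 of 25 genes were lower and 0 higher, where 1.83% of all genes tested were lower. Of the 25 values 23 were below 0, with a median of -0.36 against -0.0024 over all genes tested. Members of a list can shift together, so a shared sign is not a count of separate results. Of 75 ribosomal protein genes 74 were also below 0 (median -0.14), with 0 called. PFKFB3, which makes the activator of phosphofructokinase, had 64.3 and 30.3 TPM in Ni-E cells and 35.4 and 10.5 in Ni-W cells (log2 fold change -1.23 ± 0.13). It was lower in both pairs, although in TPM Ni-W replicate 1 was above Ni-E replicate 2. PFKFB4 fell from 73.7 and 65.3 TPM to 40.7 and 34.2, and ENO2, an enolase, from 122 and 120 TPM to 67.2 and 72.4. SLC2A1, the glucose transporter GLUT1, had 245 and 165 TPM in Ni-E and 176 and 99.8 TPM in Ni-W cells, with within-pair log2 ratios of -0.63 and -0.65. GPI, PDK1 and ALDOC were the remaining calls, and with limma on TPM values 4 of the list passed. LDHA, which makes lactate, and PGK1 had adjusted p-values of 0.00764 and 0.0133 but changed by less than 1.5-fold.

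Among 38 other HIF targets 11 were lower and 0 higher, where 1.83% of all genes tested were lower and 2.81% higher. Of the 38 values 37 were below 0, with a median of -0.52. With limma on TPM values 5 of them passed the test, against 10 with DESeq2 and the block. After STC2 described above, BNIP3, a mitophagy receptor, had 94.98 and 88.5 TPM in Ni-E cells and 58.5 and 45.2 in Ni-W cells. MXI1, a MYC antagonist, fell from 18.6 and 17.2 TPM to 11.5 and 6.93. PLOD2, a collagen lysyl hydroxylase, stood at 47.2 and 34.9 TPM in Ni-E, 29.0 and 12.4 in Ni-W and 4.34 and 3.21 in UT cells. NDRG1, an abundant hypoxia marker, had 730 and 454 TPM in Ni-E and 553 and 273 in Ni-W cells, against 187 and 104 in UT cells. CA9, a surface carbonic anhydrase, came near its UT level, with 144 and 160 TPM in Ni-E, 80.8 and 98.3 in Ni-W and 83.5 and 90.5 in UT cells. VLDLR, BHLHE40, TFRC and TMEM45A were also lower, TFRC with groups that overlapped in CPM. In TPM the groups of NDRG1 overlapped as well, with Ni-W replicate 1 above Ni-E replicate 2. VEGFA, the angiogenic factor, and KDM3A, a demethylase induced by HIF, had log2 fold changes of -0.50 ± 0.10 and -0.57 ± 0.11, below 1.5-fold, and EGLN3 was at -0.31 ± 0.09 (adjusted p = 0.0772).

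**Figure D4:**
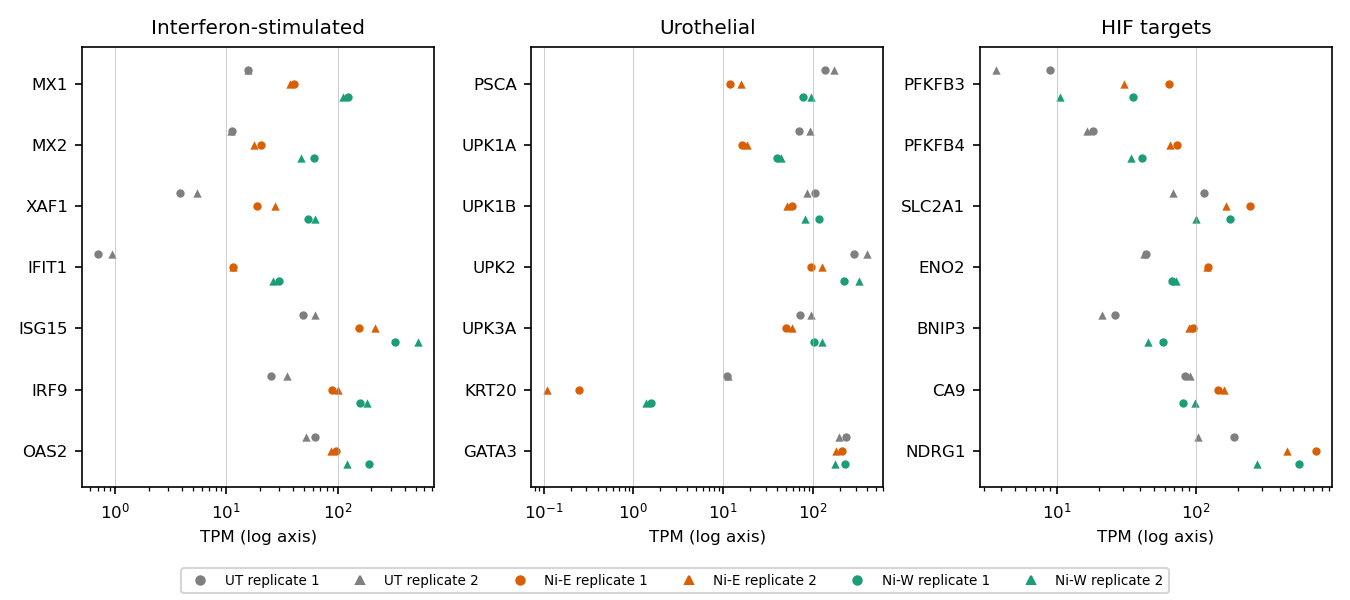
TPM (log axis) of 7 genes each of the interferon-stimulated, urothelial and HIF target lists, 1 point per library, grey for UT, orange for Ni-E and green for Ni-W, circles for replicate 1 and triangles for replicate 2. MX1 climbs from 15.7 and 15.6 TPM in UT to 123 and 112 in Ni-W cells, PSCA and UPK1A lie between orange and grey, UPK3A lies past grey, and for BNIP3 and NDRG1 green lies between grey and orange within each replicate.

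The core of the hypoxia response element (ACGTG or GCGTG, both strands) was found in 6 of 7 promoters of the called glycolysis genes and in 7 of the 9 of the other called targets with a sequence, but it was also present in 62.1% of the promoters of genes tested and in 48.4% of all promoters. In the 100 bases before the start it was found in 1 of the 7 and 3 of the 9, against 32.8% of genes tested. BNIP3, with 6 matches, 2 of them overlapping, and PFKFB4, with 1, show the range.

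BNIP3 (chr10:131981976-131982075, minus strand): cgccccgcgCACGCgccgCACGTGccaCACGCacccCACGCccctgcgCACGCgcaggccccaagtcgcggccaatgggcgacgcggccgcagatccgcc
PFKFB4 (chr3:48556918-48557017, minus strand): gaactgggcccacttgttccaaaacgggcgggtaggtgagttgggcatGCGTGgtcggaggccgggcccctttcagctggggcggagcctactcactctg

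Immediate early genes and AP-1 factors, which respond to growth factor and stress signals within minutes, held more falls than rises. Of 30 tested, 13 were lower, 2 higher and 15 not called (1.83% and 2.81% of all genes tested were lower and higher), with a median of -0.51 (-0.56 within each pair), and the lower count was 13 to 15 when any 1 library was left out. EGR1 fell from 186 and 110 TPM to 62.5 and 36.9 (log2 fold change -1.62 ± 0.10), and MYC from 158 and 65.5 TPM to 64.3 and 20.9 (-1.52 ± 0.10). FOS, which pairs with JUN to form AP-1, had 587 and 535 TPM in Ni-E, 157 and 249 in Ni-W, and 553 and 550 in UT cells, and its adjusted p was 0.0016 in the fit described and above 0.05 when no filter on low counts was used. JUN, its partner, went from 173 and 189 TPM to 69.2 and 110. DUSP1, IER3, JUND, IER2, IER5, PHLDA1, ETV4 and ETV5 were lower as well. FOSB was at -2.01 ± 0.55 and did not pass (adjusted p = 0.18), with 8.30 and 22.5 TPM in the 2 Ni-W libraries. The 2 that rose were feedback inhibitors of ERK signalling. DUSP2 had 13.5 and 13.7 TPM in Ni-E, 30.4 and 36.4 in Ni-W and 39.0 and 42.4 in UT cells, and SPRY4 had 16.9 and 12.6 TPM in Ni-E and 33.6 and 26.6 in Ni-W cells.

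Stress lists pointed down in part. Of 28 NRF2 targets, 5 were lower and 0 higher (median -0.31), where 1.83% of all genes tested were lower. AKR1C1, an aldo-keto reductase, fell from 29.9 and 30.1 TPM to 13.6 and 13.2, above its UT level of 4.74 and 5.12, and TXNRD1, thioredoxin reductase, from 131 and 96.9 TPM to 88.2 and 43.8. Reads of AKR1C1 may be shared with the other AKR1C genes. GCLC, SLC7A11 and UGDH were the other calls, UGDH with overlapping groups. The count of 5 was 3 without Ni-W replicate 2 and 2 with limma on TPM values. HMOX1, heme oxygenase, and NQO1 had log2 fold changes of 0.02 ± 0.11 and -0.23 ± 0.10. Among 26 targets of ATF4, the factor of the integrated stress response, 6 were lower, among them ATF3, STC2, VLDLR, SLC7A11 and PPP1R15A, which are members of other lists as well, and NUPR1 was higher. ASNS (-0.48 ± 0.12) and DDIT3 (-0.36 ± 0.17) were not called. GDF15, a secreted stress cytokine that p53 and ATF4 induce, had the largest fall in TPM of all called genes, from 1077 and 1199 TPM to 517 and 699, near its UT level of 503 and 620. It was the 1 call among 24 p53 targets, where 1.83% of all genes tested were lower, and CDKN1A (p21) was at -0.17 ± 0.09.

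Cell cycle genes moved in both directions. Of 50 tested, 14 were higher and 2 lower (2.81% and 1.83% of all genes tested), 31 values lay above 0 and 19 below, and the median was 0.35 (0.42 and 0.21 within the pairs). The called rises were of mitotic genes. KIF20A, a mitotic kinesin, had 26.6 and 26.0 TPM in Ni-E, 59.0 and 55.8 in Ni-W and 50.4 and 48.5 in UT cells (log2 fold change 1.09 ± 0.11). CCNB1, the mitotic cyclin, rose from 83.3 and 84.7 TPM to 157 and 136, the kinase PLK1 from 25.0 and 15.5 TPM to 49.3 and 30.8, and AURKA from 31.3 and 33.1 TPM to 64.4 and 55.4. The 2 that fell were GINS2, a subunit of the replicative helicase, and the transcription factor E2F1. GINS2 had 30.1 and 31.0 TPM in Ni-E and 19.1 and 19.4 in Ni-W cells, and E2F1 had 47.6 and 42.6 and then 30.3 and 28.3. The helicase genes MCM2 to MCM7 had log2 fold changes of -0.58 to -0.35 and PCNA one of -0.47 ± 0.09, all below 1.5-fold. MKI67, a general marker of proliferation, was at 0.50 ± 0.12, below 1.5-fold. Without Ni-E replicate 1 the count of higher genes was 9, and with limma on TPM values 8, and the lower genes numbered 4 when Ni-E replicate 1, Ni-E replicate 2 or Ni-W replicate 2 was left out. In bulk RNA, a change in the share of cells in a phase and a change in RNA per cell cannot be told apart, here or for any other list.

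Genes of the TGF-β and BMP response included 5 of 25 that were higher and 1 lower, against 2.81% and 1.83% of all genes tested. BMP2, the ligand, had 29.7 and 22.2 TPM in Ni-E and 78.0 and 36.1 TPM in Ni-W cells, and the feedback genes SMAD7, SKIL, BAMBI and ID2 rose by 0.61 to 0.70 on the log2 scale. This count is not stable, as it was 1 without either UT replicate or with the 4 Ni-E and Ni-W libraries alone, and 3 without Ni-E replicate 2 or Ni-W replicate 2, and lower genes numbered 3 when Ni-E replicate 1 or either Ni-W replicate was left out. Of 17 iron genes, 2 were lower, SLC40A1, the iron exporter ferroportin (30.3 and 18.7 TPM to 22.6 and 8.18), and TFRC, the transferrin receptor, but 0 were called without Ni-W replicate 2 and with limma on TPM values, and 1 without Ni-E replicate 2. FTH1, the ferritin heavy chain, was at -0.16 ± 0.12.

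Other lists tied to nickel held no calls. The 15 metallothionein and zinc genes tested had a median log2 fold change of 0.07, and 9 of the 24 listed stood at 0 TPM in all 4 libraries, which for near-identical genes can be a failed estimate. MT2A, a metal-binding metallothionein, had 4.14 and 4.96 TPM in UT, 42.3 and 53.8 in Ni-E and 65.4 and 68.8 in Ni-W cells, and its difference between Ni-W and Ni-E cells was not significant (log2 fold change 0.46 ± 0.18, adjusted p = 0.199). None of 21 JmjC demethylase genes was called, and the same was true of 16 genes of H3K4 methyltransferase complexes and 19 repressive methyltransferases, with EZH2 at -0.29 ± 0.12. The lowest edgeR adjusted p was 0.0122 in the JmjC list and 0.0257 in the repressive list, for genes that changed by less than 1.5-fold. Among 18 endoplasmic reticulum chaperones (HSPA5 at 0.07 ± 0.09), 62 respiratory chain subunits and 75 ribosomal protein genes 0 were called as well. In these 7 lists edgeR gave an unadjusted p below 0.05 for 4 JmjC genes, 5 ribosomal, 4 repressive methyltransferase, 1 H3K4 methyltransferase and 1 metallothionein or zinc gene and for 0 of the chaperones and respiratory chain subunits, and DESeq2 with the block also called 0. When 1 library was left out, at most 1 gene was called in each of the JmjC, metallothionein and methyltransferase lists. In the ribosomal list 74 of 75 values were below 0 although 0 were called. This list differed between pairs, with medians of -0.36 in pair 1 and 0.06 in pair 2, which shows how far a whole list can shift between replicates in these libraries.

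**Figure D5:**
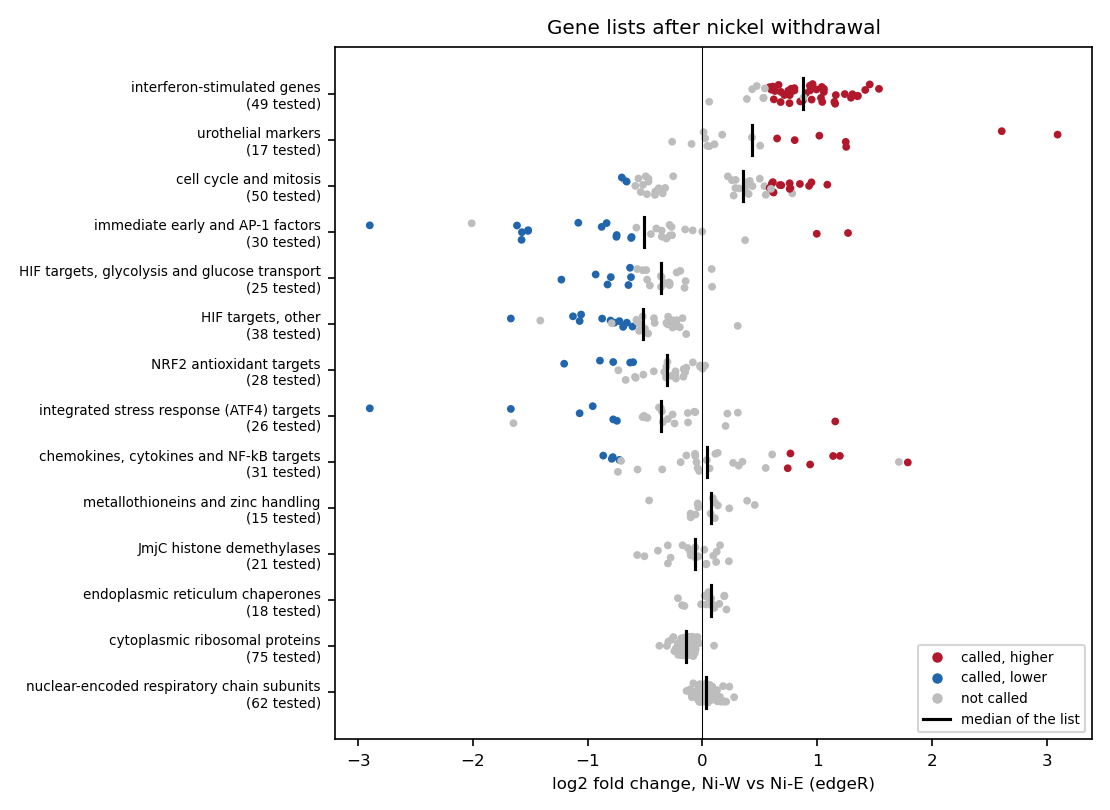
Log2 fold change of Ni-W over Ni-E cells (x axis) for the members of 14 gene lists, 1 point per gene tested, red for called higher, blue for called lower and grey for not called, with a black bar at each list's median. The interferon-stimulated genes lie to the right (median 0.87), the immediate early genes and HIF targets to the left (-0.51, -0.36 and -0.52), and ribosomal and respiratory chain genes near 0.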

How the data were processed

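RNA-Seq of RT4 cells was analysed, 2 libraries for every group (UT, Ni-E, Ni-W). The authors deposited RSEM gene tables with estimated counts, TPM and FPKM for 28252 genes over RefSeq transcripts. FPKM and ChIP-Seq files were not used. The paper's methods name an alignment to hg19, while the submitters' processing notes name STAR and GRCh38, so no coordinates of genes were taken from the files. The submitters' notes also list DESeq2.

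Rounded estimated counts were scaled by TMM and analysed in edgeR 4.0.16 (robust quasi-likelihood test, R 4.3.3) in 1 model of group plus replicate number over all 6 libraries, for genes passing edgeR's expression filter. Genes with an adjusted p below 0.05 and at least a 1.5-fold change were called. Values after ± are standard errors worked back from the edgeR test. They rest on the spread left over all 6 libraries after the replicate block, with information shared across genes. They are not the spread between the 2 libraries of a group. The deposited TPM values are printed as levels, since they are per length.

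Pairing by replicate number was part of the comparison's definition. The labels number the replicates but name no shared batch. Deviations from the group means of same-numbered libraries correlated at 0.657 to 0.764 over genes for the 3 pairs of groups.

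Named genes are the 15 largest rises and falls (mean of at least 5 CPM, groups not overlapping), the 5 called genes with the largest TPM difference each way, and per list up to 4 called members of lowest p with key members not called. Others were added after their values were seen. The comparison and all 28 gene lists were chosen with earlier results of these data known. Promoters came from RefSeq (GRCh38.p14). The test was checked on simulated data. Intervals of shares cover counting error only. Alternatives were DESeq2 1.42.0, limma 3.58.1 on log2(TPM + 1), other scalings and filters, the model without the block, and leaving out each library. A few genes are not reported here.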

Additional observations from a re-analysis of the deposited data

How the results depend on the processing

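The choice that mattered most was the replicate block. Without it edgeR called 0 genes (0 higher, 0 lower), and DESeq2, added after seeing the data, called 139 (89 higher, 50 lower). With limma on log2(TPM + 1), with the block, 328 genes were called (219 higher, 109 lower). When 1 library was left out the count was 633 to 1067, with 375 to 591 higher and 258 to 476 lower. The highest counts came without Ni-W replicate 2 (1067), and without Ni-W replicate 1 the lower genes numbered 437. In these fits a lone library is assumed to vary like the others. No gene called in the fit of the report had the opposite sign under any alternative. Of the 83 called genes that the rule named, 83 fell short without the block, 11 with limma and 1 (DSC2) with DESeq2 and the block. With DESeq2 and no block 40 fell short. Leaving out Ni-E replicate 2 lost 8 of them (TFRC, GCLC, PSMB10, DSC2, BAMBI, IVL, CST1 and NDRG1), leaving out Ni-W replicate 2 lost 8 (TFRC, GCLC, PSMB10, BAMBI, NDRG1, SLC40A1, SLC7A11 and ITGAM), and leaving out replicate 1 of either group lost GPI. ID2, BAMBI and ITGAM fell short without either UT replicate or when only the 4 Ni-E and Ni-W libraries were used. Of genes not called, the log2 fold change changed sign when 1 library was left out for HMOX1 (-0.14 to 0.19), GATA3 (-0.038 to 0.063) and PPARG (-0.0017 to 0.23). With 2 libraries per group and 2 residual degrees of freedom, genes such as SPINK1 or DSC2, with few counts in Ni-E cells, have the least certain fold changes.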

Other observations

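The genes below were in none of the lists and were picked after their values were seen, so they are a description of single genes only. Beside HES1 and NRARP, the Notch target HEY1 had 20.1 and 17.1 TPM in Ni-E, 8.23 and 6.16 in Ni-W and 6.64 and 5.18 in UT cells (log2 fold change -1.40 ± 0.15). The Notch ligand JAG1 went from 43.0 and 28.3 TPM to 32.0 and 14.8, while the receptors NOTCH1 (-0.24 ± 0.09) and NOTCH3 (-0.13 ± 0.09) were not called. SOX9, a transcription factor of progenitor cells, stood at 21.2 and 19.5 TPM with nickel present, against 8.14 and 6.88 after withdrawal. LGR5, a receptor that amplifies WNT signals, had 62.2 and 40.6 TPM and then 27.99 and 11.1. The ligands WNT5A and WNT7A had log2 fold changes of -1.41 ± 0.13 and -0.91 ± 0.13.

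MMP1, the interstitial collagenase, fell from 93.8 and 91.7 TPM to 38.2 and 33.5, and MMP12 from 2.48 and 2.67 TPM to 0.72 and 0.59. MMP7, matrilysin, rose from 0.87 and 0.83 TPM to 6.01 and 5.01, near its UT level of 3.68 and 6.29. The laminin gene LAMA3 rose by 0.64 ± 0.13 on the log2 scale. IDO1, the tryptophan-degrading enzyme that interferon induces, had 0.97 and 0.65 TPM with nickel against 3.38 and 3.39 TPM after withdrawal. The aldehyde dehydrogenase ALDH3A1 fell from 143 and 149 TPM to 47.5 and 59.9, near the UT level of 36.1 and 38.4. PADI3, a peptidylarginine deiminase, had 23.2 and 19.7 TPM in Ni-E, 65.3 and 53.4 in Ni-W and 117 and 96.3 in UT cells.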
